A study of Mus musculus with 8 samples.

Results

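The myogenic regulatory factors and the genes that work with them in satellite cells were followed in skeletal muscle of Eif6+/- and WT mice. The group holds 9 genes, Myod1, Myog, Myf5, Myf6, Pax7, Pax3, Six4, Eya1 and Mstn, of 20660 genes named on the array. They were found through the RefSeq accession of each probe, which gave 10 probes of 55681, 2 of them for Pax3 and 1 for each other gene. Young male C57BL6 mice, 8 to 16 weeks old, carried 1 mutant allele of Eif6 (Eif6+/-) or were WT littermates, and no mouse received a treatment. Eif6 encodes a translation initiation factor that keeps the large ribosomal subunit from joining the small one too early. RNA of gastrocnemius and of tibialis anterior (TA) was hybridized to 8 two-colour arrays, 4 for each muscle, with 1 Eif6+/- mouse (Cy5 dye) and 1 WT mouse (Cy3 dye) per array, paired at random among mice of like age. The design names 4 mice of each genotype, and the labels do not say whether the same mice gave both muscles.

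In a muscle that forms or repairs itself, the 4 myogenic regulatory factors (MRFs) Myod1, Myf5, Myf6 and Myog, of the basic helix-loop-helix class, pair with E proteins, bind the E-box and switch on the genes of the contractile fibre. Pax7 marks the satellite cells, the stem cells that lie under the sheath of each fibre, and Pax3 is its relative in the embryo and in some adult muscles. Six4 binds DNA and Eya1 is a phosphatase that Six4 and its relatives recruit to activate their target genes, among them Myog. Mstn (myostatin) is secreted by the fibres and restrains muscle growth.

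Genotype effects are log2 ratios of Eif6+/- over WT after normalization, levels are normalized log2 intensities of 1 channel, and a probe counts as called where the adjusted p of the fit over all tested probes was under 0.1. Every array carried Eif6+/- RNA in Cy5, so within a muscle a genotype effect and a dye effect on a probe cannot be told apart. The difference between the muscles is free of a constant dye effect. The share of probes clearly brighter than background ran from 43.6% to 48.6% over the Cy5 channels and from 38.8% to 46.0% over the Cy3 channels. Eif6 itself was lower in Eif6+/- muscle, as labelled. Its brighter probe gave −0.97, −1.15, −0.89 and −1.06 in gastrocnemius pairs 1 to 4 (mean −1.02 ± 0.11, SD, n = 4, adjusted p = 0.0241). In TA the same probe gave −1.22, −1.03, −0.95 and −0.80 (mean −0.999 ± 0.17, SD, n = 4, adjusted p = 0.0109), so that all 8 arrays had less Eif6 RNA in the heterozygote. The second probe stood at −1.13 and −1.12.

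The WT channels of gastrocnemius pairs 1 and 3 stood apart from the other WT gastrocnemius channels in Myog and in some MRF target and macrophage genes. Both lay above pairs 2 and 4 in 7 of 15 tested MRF targets, in 2 of 3 macrophage and leukocyte markers, in 4 of 6 fibroblast markers and in 2 of 4 satellite cell markers (Itga7 and Vcam1), beside 21.7% of all genes tested. Of the group itself this held for Myog and Mstn. It held for 2 of 17 partners and inhibitors of the MRFs. No tested muscle identity, slow fibre, endothelial, adipocyte, red blood cell or Schwann cell marker showed it. Itga7 was at 12.37 in both pair 1 and pair 4, so its lead there lies below the printed digits. The neutrophil markers were too dim to be tested in gastrocnemius, but S100a9 was at 8.20 and 9.55 in WT pairs 1 and 3 against 6.62 and 6.42 in pairs 2 and 4, and S100a8 and Retnlg were also higher in pairs 1 and 3. Gastrocnemius values without these 2 pairs, an alternative chosen after the data were seen, are given beside the genes of the group and the gene lists; 5.49% of all genes tested were then called higher with genotype and 4.91% lower. That fit has 2 arrays and 1 residual degree of freedom, beside 12.1 from the spread shared by all probes (3 and 4.31 with all 4 arrays, 2 and 3.98 without pair 3 alone), so its p-values rest mainly on the shared spread and are not on a par with those of the other fits. WT gastrocnemius of pair 1 also held less slow fibre RNA than the other 3 WT gastrocnemius channels, with a summed linear level of 14500 against 41200 to 153700. All 8 muscle identity markers could be tested in both muscles.

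Eya1 was higher in Eif6+/- muscle on all 8 arrays. Its log2 ratios were 0.82, 0.39, 0.38 and 0.74 in gastrocnemius pairs 1 to 4 and 0.52, 0.41, 0.75 and 0.63 in TA pairs 1 to 4. The 4 Eif6+/- channels of each muscle lay above all 4 WT channels, with levels between 14.22 and 14.43 against 13.59 and 13.86 in gastrocnemius and between 14.18 and 14.43 against 13.54 and 13.89 in TA (normalized log2 intensity). The means were 0.58 ± 0.23 in gastrocnemius (SD, n = 4, adjusted p = 0.0350), which is 1.5-fold, and 0.58 ± 0.15 in TA (SD, n = 4, adjusted p = 0.0125), which is 1.49-fold. The effect did not differ detectably between the muscles (0.00, standard error 0.13, adjusted p = 0.995). A constant dye effect on the Eya1 probe would also be alike in both muscles, and it cannot be told apart from genotype here. In order of level the group means ran from WT gastrocnemius (13.72) and WT TA (13.74) to Eif6+/- gastrocnemius (14.31) and Eif6+/- TA (14.32), and neighbours of the same genotype overlapped. The call in TA was kept in all 16 alternatives, with adjusted p from 0.00597 to 0.0987. In gastrocnemius it was lost, at values of like size, without pair 3 (0.65, adjusted p = 0.121) or without pair 4 (0.53, adjusted p = 0.161), where no probe of the whole array was called. Without pairs 1 and 3 the mean was 0.57 (adjusted p = 0.0301, from 2 arrays).

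**Figure D1:**
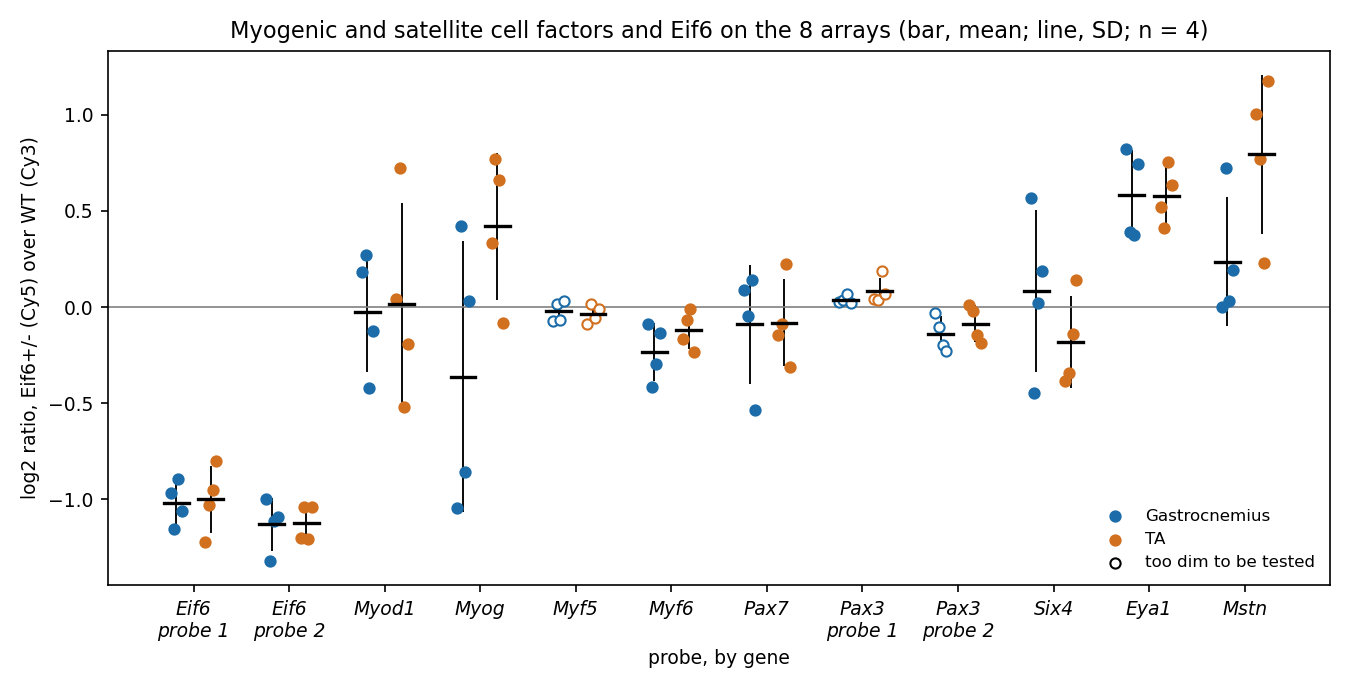
Log2 ratio of Eif6+/- over WT on the y axis for every probe of the 9 genes and of Eif6 on the x axis, with 1 point per array, a bar at the mean and a line of 1 SD (n = 4 per muscle; open points, too dim to be tested). Eya1 lies above 0 on all 8 arrays, Mstn reaches 1.18 in TA, and Myog spreads from −1.04 to 0.42 in gastrocnemius.

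Of the 9 genes, 7 were bright enough to be tested in gastrocnemius and 8 in TA. Eya1 was the 1 of 7 called in gastrocnemius, where 13.8% of all 23802 tested probes were called. In TA, Eya1, Mstn and Myog were 3 of 8, all higher in Eif6+/-, where 15.2% of 23391 probes were called. The median log2 ratio of the tested genes of the group was −0.02 in gastrocnemius and −0.03 in TA, beside 0.02 in each muscle over all genes tested. Leaving out pair 3 or pair 4 of gastrocnemius left 0 probes called there with limma, and leaving out TA pair 1, 2 or 3 left 113, 896 or 1933, so the number of calls changes much with the arrays in the fit.

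Mstn was higher in Eif6+/- TA. Its log2 ratios in TA were 1.00, 0.77, 0.23 and 1.18 in pairs 1 to 4, and in gastrocnemius 0.00, 0.72, 0.03 and 0.19. In TA all 4 Eif6+/- levels, 9.72 to 9.85, lay above the 4 WT levels of 8.66 to 9.55, with pair 3 of WT the highest, while in gastrocnemius the genotypes overlapped and pair 2 of Eif6+/- was the highest. The mean was 0.79 ± 0.41 in TA (SD, n = 4, adjusted p = 0.0244), about 1.7-fold, and 0.24 ± 0.33 in gastrocnemius (SD, n = 4, adjusted p = 0.279). The difference between these effects was −0.56 (standard error 0.21) and did not pass the threshold (adjusted p = 0.636), so a genotype effect that differs between the muscles was not established for Mstn. The TA call was lost without pair 1 (0.72, adjusted p = 0.152) and kept in the 15 other alternatives. In gastrocnemius Mstn was called in 1 of 17 alternatives, the one without pairs 1 and 3 (0.46, adjusted p = 0.0815, from 2 arrays). Without pair 2 the gastrocnemius mean was 0.075 (adjusted p = 0.657).

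Mstn also differed between the muscles in both genotypes. In WT mice it stood at 10.19, 9.84, 10.11 and 9.87 in gastrocnemius pairs 1 to 4 and at 8.85, 8.95, 9.55 and 8.66 in TA, with no overlap. The difference was 1.00 (standard error 0.18, adjusted p = 0.00969), that is 2.0-fold more in WT gastrocnemius. In Eif6+/- mice the levels were 10.19, 10.56, 10.14 and 10.06 in gastrocnemius against 9.85, 9.72, 9.78 and 9.83 in TA, again with no overlap, and the difference was 0.44 (standard error 0.10, adjusted p = 0.0326), or 1.36-fold. From low to high the group means were WT TA (9.001), Eif6+/- TA (9.80), WT gastrocnemius (10.00) and Eif6+/- gastrocnemius (10.24). Only WT TA was clear of its neighbour, and the other neighbours overlapped, Eif6+/- TA and WT gastrocnemius by 1 channel of each. Gastrocnemius lay in 1 row of the slide and TA in the other, so an effect of muscle and one of the place on the slide cannot be told apart. Without gastrocnemius pairs 1 and 3 the WT difference was 0.85 (adjusted p = 0.0691) and the Eif6+/- difference 0.51 (adjusted p = 0.1002), which is no longer called.

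**Figure D2:**
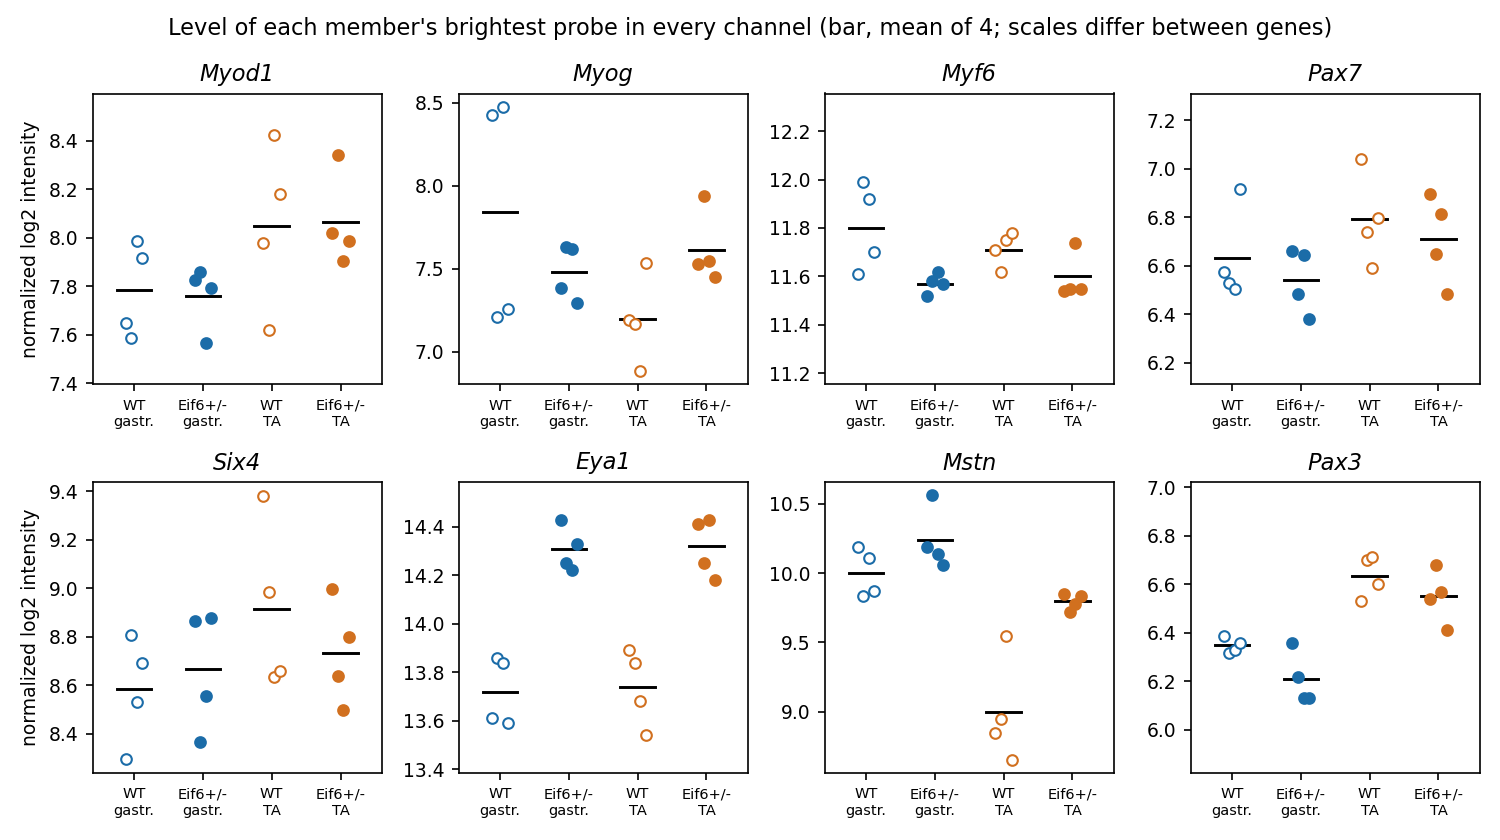
Normalized log2 intensity on the y axis of the brightest probe of 8 of the genes in each channel, grouped on the x axis by genotype and muscle (points, arrays; bars, means of 4). Eif6+/- and WT do not overlap for Eya1 in either muscle, and WT TA holds the lowest levels of Mstn, 8.66 to 9.55.

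Myog, the factor that drives myoblasts into fibres, moved in a different way on different arrays. In TA its log2 ratios were 0.33, 0.77, 0.66 and −0.08 in pairs 1 to 4, with a mean of 0.42 ± 0.38 (SD, n = 4, adjusted p = 0.0879), higher on 3 of 4 arrays. In gastrocnemius they were −1.04, 0.42, −0.86 and 0.03, with a mean of −0.36 ± 0.70 (SD, n = 4, adjusted p = 0.368). The spread in gastrocnemius came from the WT channel, where Myog was at 8.42 and 8.48 in pairs 1 and 3 and at 7.21 and 7.26 in pairs 2 and 4, while the 4 Eif6+/- gastrocnemius levels lay between 7.29 and 7.63. Without pairs 1 and 3 the gastrocnemius mean turned to 0.23 (adjusted p = 0.355). The TA call was weak: it held in 9 of 16 alternatives, with adjusted p between 0.0313 and 0.255, and was lost without pair 1 (log2 ratio 0.45, adjusted p = 0.255), pair 2 (0.30, adjusted p = 0.246) or pair 3 (0.34, adjusted p = 0.207). It was also lost with Agilent's processed signals (log2 ratio 0.82, adjusted p = 0.152), with a normexp offset of 0 (log2 ratio 0.65, adjusted p = 0.12) with an intensity trend in the fit (adjusted p = 0.106) and with SAM at an FDR of 0.05 (q = 0.0604), and a threshold of 0.05 on the adjusted p, counted apart, ended it as well. The difference of the effects between the muscles was −0.78 (standard error 0.31, adjusted p = 0.636). Over 20 alternatives it ran from −1.30 to −0.19 and was called in none. Between the muscles Myog did not pass the threshold in WT (0.65, standard error 0.30, adjusted p = 0.186; called without gastrocnemius pair 2, at 0.86 and adjusted p = 0.0821, and 0.04 without pairs 1 and 3) or in Eif6+/- mice (−0.13, standard error 0.12, adjusted p = 0.526).

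The same 2 WT gastrocnemius channels were high in some genes of new fibres, and the 4 named next were picked from the MRF targets after their values were seen. Myh3, the embryonic myosin heavy chain, stood at 11.28 and 11.67 in WT gastrocnemius of pairs 1 and 3 and at 6.91 and 7.90 in pairs 2 and 4, and the next highest channels were Eif6+/- TA of pair 2 (9.55) and WT TA of pair 4 (9.10). Myl4, an embryonic myosin light chain, was at 12.52 and 12.90 against 10.18 and 10.00, and Mymk (myomaker), which fuses myoblasts, at 7.76 and 8.48 against 6.51 and 6.42. Chrna1, the alpha subunit of the acetylcholine receptor, was at 10.53 and 10.87 against 9.60 and 9.18. Other targets were not: Actc1, the cardiac actin, was highest in pair 4 (17.43 against 16.14 to 16.52). The brighter Myh8 probe was at 17.3 and 16.72 in pairs 1 and 3 against 16.77 and 16.98. Myh4 was there at 17.14 and 16.64 against 16.57 and 16.82, and whether that probe reads Myh8 alone was not tested. Of the 3 tested macrophage and leukocyte markers, Adgre1 was at 8.84 and 8.91 against 7.45 and 7.48, and Csf1r at 12.00 and 11.87 against 10.76 and 11.07. The third, Cd74, was high in pair 3 alone (11.96), with pair 1 at 10.75 and pairs 2 and 4 at 10.92 and 10.42. The summed linear level of the 3 was 6285 and 8227 in WT gastrocnemius of pairs 1 and 3 and 3853 and 3706 in pairs 2 and 4, with Csf1r as the brightest of them, beside 3215 to 3707 in the Eif6+/- channels. In these bulk samples a change in the number of cells of a type and a change in RNA per cell cannot be told apart, and the part of these cells in the Myog values was not tested.

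**Figure D3:**
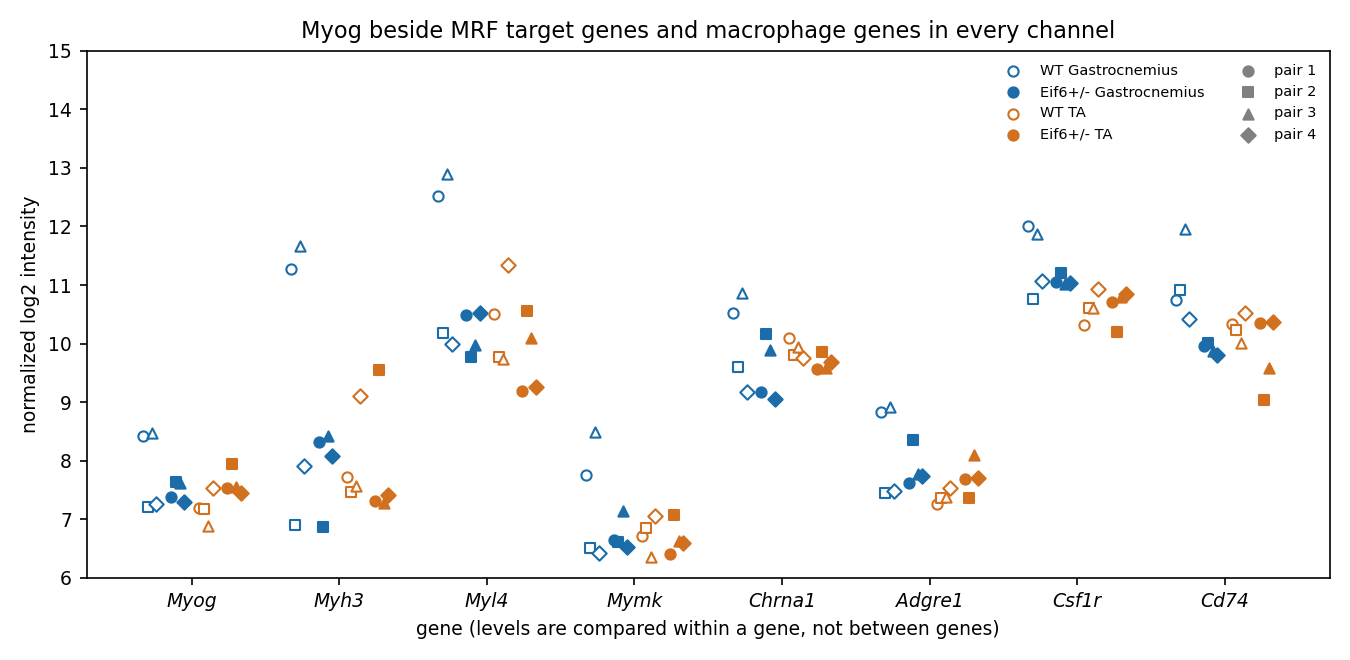
Normalized log2 intensity on the y axis of Myog, 4 MRF target genes and 3 macrophage and leukocyte genes (x axis) in every channel, with open points for WT, filled points for Eif6+/- and 1 symbol per pair. The WT gastrocnemius channels of pairs 1 and 3 lie at the top for each gene but Cd74, at 11.28 and 11.67 for Myh3.

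The promoters of Myog and Mstn, called together with Eya1 in TA, are shown because both hold the E-box CANNTG that the MRFs bind and because the Myog promoter holds the MEF3 motif TCAGGTTTC, the sequence bound by Six4 and its relatives. Each is the RefSeq window of 250 bases before to 50 bases after the gene's start (GRCm38.p6), 5′ to 3′, with both motifs in capitals. Myog lies at chr1:134289754-134290053 and Mstn at chr1:53061390-53061689, both on the plus strand.
Myog: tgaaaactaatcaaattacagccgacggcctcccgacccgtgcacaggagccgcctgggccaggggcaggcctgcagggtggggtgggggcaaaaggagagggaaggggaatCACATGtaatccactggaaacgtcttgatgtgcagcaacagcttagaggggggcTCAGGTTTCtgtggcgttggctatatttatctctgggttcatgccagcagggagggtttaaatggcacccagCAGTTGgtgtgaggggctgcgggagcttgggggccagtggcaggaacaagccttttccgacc
Mstn: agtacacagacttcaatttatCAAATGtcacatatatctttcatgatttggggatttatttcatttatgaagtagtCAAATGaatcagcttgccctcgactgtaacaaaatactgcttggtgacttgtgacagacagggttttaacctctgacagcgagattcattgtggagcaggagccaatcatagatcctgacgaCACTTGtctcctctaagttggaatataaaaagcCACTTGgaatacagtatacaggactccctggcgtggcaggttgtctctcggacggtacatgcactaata
Both strands were searched, and no match of 1 motif overlapped the other. The Myog window holds 2 E-boxes and 1 MEF3 motif, the latter starting at position −84 from the gene's start, and the Mstn window 4 E-boxes and no MEF3 motif. Of 32851 promoters of the same length, 72.3% hold at least 1 E-box and 0.429% hold MEF3. Of the 5 genes of the group with a promoter in the table, Six4 also has MEF3 in 1 of its 2 windows, at position −99, on the strand opposite to the gene. A match of letters is a description and not a site.

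Myod1, which commits cells to the muscle lineage, showed no common direction. Its log2 ratios were 0.18, 0.27, −0.42 and −0.12 in gastrocnemius and 0.04, 0.73, −0.52 and −0.19 in TA, higher on 2 of 4 arrays in each muscle, with means of −0.02 ± 0.31 and 0.01 ± 0.53 (SD, n = 4; adjusted p = 0.925 and 0.967), and of 0.07 in gastrocnemius without pairs 1 and 3 (adjusted p = 0.807). Between the muscles its level was lower in gastrocnemius in Eif6+/- mice, where the 4 channels of each muscle did not overlap (7.57 to 7.86 against 7.90 to 8.34), but the difference of −0.30 missed the threshold (adjusted p = 0.103). It passed in 5 of 15 alternatives (adjusted p from 0.0563 to 0.344), among them the one without TA pair 3 (−0.36, adjusted p = 0.0664) and the one with replicate number as a block (adjusted p = 0.0563). In WT mice the difference was −0.27 (adjusted p = 0.325) and the muscles overlapped.

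Myf6, the MRF of mature fibres, was below 0 on all 8 arrays and called in neither muscle. Its log2 ratios were −0.09, −0.42, −0.29 and −0.13 in gastrocnemius (mean −0.23 ± 0.15, SD, n = 4, adjusted p = 0.133) and −0.17, −0.07, −0.01 and −0.23 in TA (mean −0.12 ± 0.10, SD, n = 4, adjusted p = 0.313). The sign was the same in all 17 and 16 alternatives, none of which called it; without gastrocnemius pairs 1 and 3 the mean was −0.27 (adjusted p = 0.237). In Eif6+/- gastrocnemius its levels lay between 11.52 and 11.62, and the muscles differed by 0.09 in WT and by −0.02 in Eif6+/- mice, short of the threshold in both.

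Pax7 gave log2 ratios between −0.54 and 0.14 in gastrocnemius (mean −0.09 ± 0.31, SD, n = 4, adjusted p = 0.674) and between −0.31 and 0.23 in TA (mean −0.08 ± 0.23, SD, n = 4, adjusted p = 0.602). The low value of −0.54 was that of pair 4, where WT gastrocnemius had the highest Pax7 of that group, 6.92. Without pairs 1 and 3 the gastrocnemius mean was −0.29 (adjusted p = 0.249). The 4 group means lay between 6.54 and 6.79 and overlapped. Of the 6 satellite cell markers (Pax7, Myf5, Cdh15, Calcr, Itga7 and Vcam1), 4 could be tested in gastrocnemius and 5 in TA, and none was called in either. Their median log2 ratios were −0.21 and −0.08, and −0.15 in gastrocnemius without pairs 1 and 3, where again none was called. Of all genes tested, 9.85% were called higher and 5.53% lower in gastrocnemius, and 8.98% and 7.29% in TA.

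Six4 was at 0.57, −0.44, 0.02 and 0.19 in gastrocnemius and at −0.38, −0.34, −0.14 and 0.14 in TA, with means of 0.08 ± 0.42 and −0.18 ± 0.24 (SD, n = 4; adjusted p = 0.760 and 0.257), and of −0.13 in gastrocnemius without pairs 1 and 3 (adjusted p = 0.676). It was called in 1 of 16 alternatives in TA, without pair 4 (−0.29, adjusted p = 0.0864). Its level did not pass the threshold between the muscles in either genotype.

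Myf5 was not well above background in any of the 16 channels, and neither genotype can be given a level. The dimmer Pax3 probe was well above background in 1 of 16 channels. The brighter Pax3 probe passed in 3 of 4 TA channels of each genotype, in 1 of 4 Eif6+/- gastrocnemius channels and in none of WT gastrocnemius, so it could be tested in TA alone, where its mean was −0.09 ± 0.10 (SD, n = 4, adjusted p = 0.462). In Eif6+/- mice its levels were 6.41 to 6.68 in TA and 6.13 to 6.36 in gastrocnemius, with no overlap. The probe entered the fit between Eif6+/- muscles mainly through TA, where it is brighter, so no size or test of that difference is given. In WT mice the probe was too dim for the fit. Its levels there were 6.53 to 6.71 in TA and 6.32 to 6.39 in gastrocnemius, where it was not well above background on any array. No size of the WT difference is therefore given.

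No probe at all was called for a genotype effect that differs between the muscles (0 of 22765 probes tested with limma, 0%), and so 0 of the 7 genes. At an unadjusted p under 0.05 there were 1734 of the 22765 probes, among them Mstn and Myog, each with an adjusted p of 0.636 in the same limma fit. Between WT gastrocnemius and WT TA, Mstn was the 1 of 7 genes called, where 18.7% of 23137 probes were called. Between the muscles of Eif6+/- mice 13.1% of 25437 probes were called, Mstn among them, and Pax3 is not counted, for the reason given above.

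**Figure D4:**
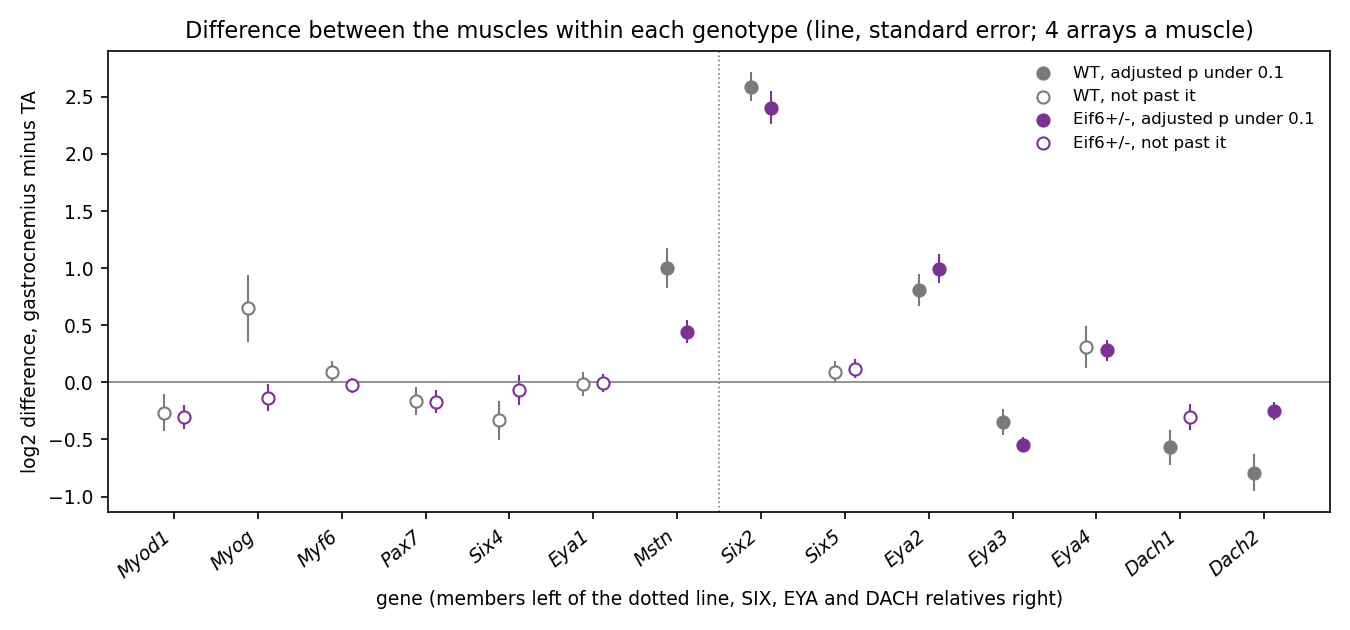
Log2 difference of gastrocnemius minus TA on the y axis within WT and within Eif6+/- mice, for 7 genes of the group and for 7 relatives of Six4, Eya1 and their cofactor Dach on the x axis (points, estimates from 4 arrays a muscle; lines, standard errors; filled, adjusted p under 0.1). Mstn is higher in gastrocnemius in both genotypes, at 1.00 and 0.44, and Six2 at 2.59 and 2.41.

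A list of 7 relatives of Six4, Eya1 and their cofactor Dach could be tested in full. With genotype, none was called in gastrocnemius and Eya3 was higher in TA (0.64, 0.51, 0.51 and 0.03 in pairs 1 to 4; mean 0.42 ± 0.27, SD, n = 4, adjusted p = 0.0499), beside 9.85% of all genes tested higher and 5.53% lower in gastrocnemius and 8.98% and 7.29% in TA. Between the muscles, 2 of 7 were higher and 3 lower in gastrocnemius of WT mice and 3 higher and 2 lower in that of Eif6+/- mice, beside 8.3% of all genes tested called higher and 13.2% lower in WT and 6.2% and 9.2% in Eif6+/- mice. Six2 was higher in gastrocnemius by 2.59 in WT and by 2.41 in Eif6+/- mice (adjusted p = 2.27e-05 and 4.06e-05), and Eya2 by 0.81 and 1.00 (adjusted p = 0.00889 and 0.00421). Eya3 was lower in gastrocnemius in both (−0.35 and −0.54), as was Dach2 (−0.79 and −0.25). Dach1 was lower in WT (−0.57) and Eya4 higher in Eif6+/- mice (0.28). Six5 was called in neither genotype. Six2, Eya2 and Eya3 kept their calls in both genotypes without gastrocnemius pairs 1 and 3, while those of Dach1 (−0.35 in WT), Dach2 (−0.55 in WT and −0.26 in Eif6+/- mice) and Eya4 (0.22 in Eif6+/- mice) were lost, at values for Dach2 in Eif6+/- mice and Eya4 close to those of all pairs.

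Of 17 partners and inhibitors of the MRFs tested, 12 were not called in gastrocnemius and 14 not in TA. In Eif6+/- gastrocnemius 2 were higher and 3 lower, and in TA 2 were higher and 1 lower, while 9.85% and 8.98% of all genes tested were called higher and 5.53% and 7.29% lower. Mef2a, a MADS-box factor that acts with the MRFs, was higher in both muscles (0.45 ± 0.23 and 0.46 ± 0.05, SD, n = 4; adjusted p = 0.0512 and 0.0153), on all 8 arrays. Its relative Mef2d was lower in both (−0.43 and −0.38, adjusted p = 0.0629 and 0.0601), and so was its second probe (−0.42 and −0.31). Tcf12, an E protein, was higher in both (0.40 and 0.36, adjusted p = 0.0683 and 0.0706). The E protein Tcf3 (−0.35, adjusted p = 0.0580) and the repressor Bhlhe41 (−0.47, adjusted p = 0.0508) were lower in gastrocnemius, where the second probe of Tcf3 was at −0.31 and not called (adjusted p = 0.132). Leaving out gastrocnemius pairs 1 and 3 also gave 2 higher and 3 lower, with Tcf3 no longer called at nearly the same value (−0.34, adjusted p = 0.124) and Carm1, a coactivator of Mef2 factors, called lower (−0.60, adjusted p = 0.0256). The second probes of Mef2a, Tcf12 and Bhlhe41 gave values between 0.02 and 0.18 and were not called.

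Of 15 MRF targets tested, 3 were lower and 1 higher in gastrocnemius, and 2 were lower and 1 higher in TA, beside 5.53% and 7.29% of all genes tested called lower and 9.85% and 8.98% higher. Their median log2 ratios were −0.37 and −0.22 beside 0.02 over all genes. Array by array the medians were −0.38, 0.0062, −0.49 and −0.12 in gastrocnemius pairs 1 to 4 and −0.31, 0.04, −0.07 and −0.26 in TA. The gastrocnemius median was −0.03 without pairs 1 and 3, with 2 lower and 1 higher, and Cdkn1c was no longer called (−0.27). Des (desmin), an intermediate filament of the fibre, was lower in both muscles, at −0.20, −1.08, −0.98 and −0.45 in gastrocnemius and at −0.83, −0.44, −0.42 and −0.26 in TA (adjusted p = 0.0512 and 0.0329). Ckm, muscle creatine kinase, and the cell cycle inhibitor Cdkn1c were lower in gastrocnemius (−0.37 and −0.41, adjusted p = 0.0580 and 0.0664). Cdkn1a (p21) was lower in TA (−0.24, adjusted p = 0.0891). Myh8, the perinatal myosin heavy chain, was higher in both muscles by its brighter probe alone (0.46 and 0.86, adjusted p = 0.0544 and 0.0136). Its other probe was at −0.14 and −0.11 and was not called. The brighter probe had mean WT levels of 16.94 in gastrocnemius and 16.64 in TA, beside 16.79 and 16.45 for the muscle identity marker Myh4. Whether that probe reads Myh8 alone was not tested. Myh3, Myl4 and Mymk, picked as above, at −1.51, −1.21 and −0.56 in gastrocnemius, were not called there (adjusted p = 0.162, 0.1802 and 0.217), and pairs 1 and 3 of WT held the highest levels of each.

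Genes of satellite cell surface, Notch signalling and quiescence gave 3 higher and 3 lower of 27 in gastrocnemius and 2 higher and 2 lower of 28 in TA, beside 9.85% and 8.98% of all genes higher and 5.53% and 7.29% lower. With gastrocnemius pairs 1 and 3 left out, 1 was higher (Sdc4, 0.79, adjusted p = 0.0583) and 1 lower (Lbx1, −0.38, adjusted p = 0.0977), and the calls of Sdc3 (−0.38), Spry1 (0.23), Hey1 (0.21) and Itgb1 (−0.20) given below were lost. Sdc4 (syndecan-4), a proteoglycan of the satellite cell surface, was the furthest from 0, at 1.52, 1.45, 1.75 and 0.12 in gastrocnemius and at 1.54, 1.43, 1.42 and 0.00 in TA pairs 1 to 4 (adjusted p = 0.0433 and 0.0358). Pair 4 stood apart in both muscles, and there the WT channel was at 8.21 and 8.29 against 6.71 to 7.10 in the other WT channels. Its relative Sdc3 was lower in gastrocnemius (−0.42, adjusted p = 0.0393). Spry1, an inhibitor of growth factor signalling that keeps satellite cells quiescent, was higher in both muscles (0.35 and 0.34, adjusted p = 0.0928 and 0.0687), and Lbx1, a homeobox factor of migrating muscle precursors, lower in both (−0.28 and −0.40, adjusted p = 0.0860 and 0.0816). Hey1, a Notch target, was higher (0.37, adjusted p = 0.0671) and Itgb1, beta-1 integrin, lower (−0.31, adjusted p = 0.0927) in gastrocnemius, where the other Itgb1 probe was at −0.04. Ncam1 was lower in TA by its brightest probe (−0.28, adjusted p = 0.0729) and near 0 by its 2 others.

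In the myostatin pathway, 4 of 20 genes were higher and none lower in gastrocnemius, and 3 of 19 were higher and 1 lower in TA, beside 9.85% and 8.98% of all genes higher and 5.53% and 7.29% lower. Without gastrocnemius pairs 1 and 3, 2 were higher and 1 lower (Acvr1b, −0.48, adjusted p = 0.0824), and Wfikkn2 (0.28) and Smad4 (0.19) were no longer called there. Of the ligands, Inhbb, a subunit of activin B, is 1 of the 3 counted higher in TA, but it was well above background in 4 of 4 Eif6+/- and in 2 of 4 WT channels (6.67 to 7.23 against 6.36 to 6.68), so no size or test is given. Among the receptors, Acvr1b was lower (−0.39, adjusted p = 0.0359) and Tgfbr1 higher (0.27, adjusted p = 0.0480) in TA. Of the inhibitors, Wfikkn2 was higher in gastrocnemius (0.50, adjusted p = 0.0554), as were Smad7 (0.43, adjusted p = 0.0614) and Tcap, a Z-disc protein that binds Mstn (0.68, adjusted p = 0.0357). Smad4, the shared partner of the receptor SMADs, was higher in both muscles by its brighter probe (0.29 and 0.32, adjusted p = 0.0857 and 0.0588), but its other probe was at −0.16 in gastrocnemius and at −0.28 in TA, there called lower (adjusted p = 0.0736). The other probe of Wfikkn2 that could be tested was at −0.06.

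Markers of slow fibres and of other cells moved with genotype in TA, where Myog, Mstn and Eya1 were called, and their part in those results was not tested. The summed log2 ratio of the 7 slow fibre markers, of which Myl3 was the brightest, was 0.01, −0.52, −0.06 and −1.45 in TA pairs 1 to 4, and 3 of 7 were called lower, in a comparison where 8.98% of all genes tested were higher and 7.29% lower. In gastrocnemius it was 3.23, −1.09, 0.19 and −0.18, and none was called, whereas 5 of 7 were called lower without pairs 1 and 3. The 3 red blood cell markers, led by Hba-a1, were all lower in TA, with summed log2 ratios of −0.74, −1.31, −0.59 and −0.40. Of 4 adipocyte markers, led by Retn, 3 were counted higher in TA, among them Plin1, which was well above background in 3 of 4 WT channels, with summed log2 ratios of 0.60, −0.18, 1.48 and 0.58. Where Mstn separated the muscles, so did slow fibre markers: 6 of 7 were higher in gastrocnemius of WT and 7 of 7 in that of Eif6+/- mice, with medians of 2.12 and 2.30, and 6 and 5 of 7 without gastrocnemius pairs 1 and 3. Adipocyte markers were higher there too, 4 of 4 in WT and 3 of 4 in Eif6+/- mice (4 and 2 without the 2 pairs), and Schwann cell markers, 1 of 4 and 4 of 4 (also without the 2 pairs). Of 6 fibroblast markers 3 were higher in WT and none in Eif6+/- mice, and of 4 macrophage and leukocyte markers 1 in each, with none of either without the 2 pairs. Beside these, 8.3% of all genes tested were higher in gastrocnemius of WT and 6.2% in that of Eif6+/- mice, and 3.84% and 1.88% without the 2 pairs. The part of these markers in the Mstn difference was not tested.

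Likeness to each gene of the group is given as a description, by Pearson's r over the 8 log2 ratios, which share a slide and pool both muscles. For Myog the ratios of gastrocnemius pairs 1 and 3, −1.04 and −0.86, lay furthest from 0, and r without these pairs is not given. Among 12199 other genes, those most like Myog were Tubb6, Lgals3 and Ptgr1 (r = 0.986, 0.986 and 0.984), and those most like Eya1 were Fam219a, Ephb3 and Arhgap26 (r = 0.990, 0.984 and 0.980). For Mstn they were Gaa, Zfp280d and Cyb561d2 (r = 0.950, 0.930 and 0.930), and for Six4 Immt, Pex16 and Pcsk7 (r = 0.989, 0.979 and 0.979). Myod1 was most like Atp6v1h, Zfp954 and Lrtm2 (r = 0.947, 0.946 and 0.944), Myf6 most like Zdhhc5, Elavl1 and Cspp1 (r = 0.972, 0.941 and 0.940) and Pax7 most like Cyp2j8, Sez6l2 and Znrf2 (r = 0.944, 0.939 and 0.932).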

How the data were processed

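RNA of both muscles was compared between genotypes on 8 two-colour Agilent arrays of 1 slide, read in 1 scan. The authors deposited spot intensities per array, from Feature Extraction 10.5.1.1, both unnormalized medians and Agilent's processed signals, and a table of log2 ratios of Cy5 over Cy3. The deposited table was compared with loess values of uncorrected intensities (Pearson's r across spots from 0.999963 to 0.999996 over the arrays), which gives its direction but not its scale or centring. Its column medians were 0.00257, 0.000831, −0.00441 and 0.00375 in gastrocnemius and 0.00138, −0.000366, 0.00288 and 0.00212 in TA. The methods name log2, quantile normalization and SAM at an FDR of 0.05, and mention Cy3 labelling alone, while the labels give Cy5 for Eif6+/- and Cy3 for WT.

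Median spot intensities were corrected with normexp (offset 50), normalized by loess within arrays (controls at weight 0) and by quantiles across channels. Control spots and outlier spots (233 to 318 per array) were left out and replicate spots averaged. Ratios of a muscle were tested for probes that each of its 4 arrays showed well above background in Cy5, Cy3 or both, and muscle differences for probes that passed in the channel used on at least 4 of 8 arrays. The fits used limma 3.58.1 (lmFit, eBayes) under R 4.3.3, with Benjamini-Hochberg adjustment over all tested probes and a threshold of 0.1. The fits were also run on simulated ratios with independent noise for each probe and planted changes. That simulation held no effect shared by an array, so it does not bear on calls that change when a pair is left out. The precision is limited by 4 arrays per muscle.

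Probes were named through RefSeq accessions and a gene table of GRCm38.p6, which matched 27235 of 28685 such probes. A gene was represented by its probe of highest mean signal. Named were all member probes, Eif6 and every listed gene past the threshold in a muscle, at most 8 per list and muscle; the members and lists were chosen with earlier results of these data known. Cd68 matched no probe. Alternatives covered normalization, background, filters, SAM, the threshold, the trend of the fit, a gene's other probes, a replicate block and each array left out.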

Additional observations from a re-analysis of the deposited data

Results flagged for a closer look

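Among 100 groups of 4 values examined (the members' ratios and levels, and the ratios of the named list genes), 3 held a value far from the other 3; chance gives about 1 in 20. Myf6 in Eif6+/- TA was at 11.74 in pair 3 and between 11.54 and 11.55 in the other pairs. Spry1 had a log2 ratio of −0.027 in gastrocnemius pair 2, against 0.46 to 0.49 in the others. Sdc4 was at 0.0015 in TA pair 4, against 1.42 to 1.54, and its gastrocnemius ratio in pair 4 was 0.12. No gene of the group passed the threshold for an effect that differs between the muscles.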

How the results depend on the processing

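In TA, Eya1 was called in 16 of 16 alternatives and Mstn in 15 of 16, and in WT mice the muscle difference of Mstn was called in 15 of 15. Probes called in gastrocnemius were 5399 with SAM at an FDR of 0.1, 1080 at an adjusted p under 0.05 and 0 to 2956 without 1 pair, with 0 to 1 members. In TA they were 1781 with processed signals, 1570 with SAM at 0.05, 1393 at an adjusted p under 0.05, 5585 with no filter, 2293 with offset 0 and 113 to 3538 without 1 pair, with 1 to 4 members. For the effect difference there was 1 with processed signals and 1 with no filter. Between muscles 1 pair left out gave 2561 to 4267 probes in WT (1 to 2 members) and 1458 to 3797 in Eif6+/-. With no filter 2 members were called in WT, 1 of them too dim for the main fit. Processed signals gave 6503 probes in Eif6+/-, of which 1430 higher and 5073 lower in gastrocnemius (1416 and 1905 in the main fit). In WT they gave 1297 and 3917 (1634 and 2694). Processed signals moved the median WT muscle difference of all probes from −0.03 to −0.12. Without gastrocnemius pairs 1 and 3, chosen after the data were seen, there were 2154 probes and 2 members in gastrocnemius. There were then 1639 probes between WT and 880 between Eif6+/- muscles. The only member among the latter was Pax3, which is not counted in that comparison, and Mstn was not called. Directions of uncalled values turned there: Myod1 0.073, Myog 0.23 and Six4 −0.13 in gastrocnemius, and Eya1 −0.013 and Myod1 0.059 for the effect difference. Elsewhere, Eya1 between muscles turned to 0.021 (Eif6+/-) and 0.0061 (WT) with Aquantile, Myf6 between WT muscles to −0.12 with processed signals, and Pax7's effect difference to 0.027 with processed signals and 0.0078 with no background correction. Without 1 pair, gastrocnemius ratios ran from −0.12 to 0.11 (Myod1), −0.17 to 0.061 (Pax7) and −0.078 to 0.26 (Six4), and TA ratios of Myod1 from −0.22 to 0.19. Effect differences ran from −0.076 to 0.073 (Eya1), −0.22 to 0.20 (Myod1) and −0.085 to 0.14 (Pax7), and muscle differences from −0.056 to 0.028 (Eya1), −0.043 to 0.023 (Myf6) and −0.15 to 0.033 (Six4) in Eif6+/- and from −0.079 to 0.037 (Eya1) in WT. The causes were not tested. Whether replicate numbers pair the muscles cannot be told from the values (same-numbered correlations were −0.14, 0.02, −0.36 and 0.09 for ratios, −0.37, 0.12, −0.07 and 0.19 for WT and 0.18, 0.02, 0.02 and 0.15 for Eif6+/- levels), and with them as a block 2980 probes were called between WT and 3610 between Eif6+/- muscles. Signal over background limits Myf5 and Pax3.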

Other observations

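Among the markers of other cells, the genes given by name were chosen after their values were seen. The shares of all genes tested beside the counts of this section were 9.85% higher and 5.53% lower in gastrocnemius. They were 8.98% and 7.29% in TA, and 5.49% and 4.91% in gastrocnemius without pairs 1 and 3. In gastrocnemius, 1 of 8 muscle identity markers was higher in Eif6+/- (Myh1, 0.96) and 2 were lower (Ckm, −0.37, and Actn3, −0.36), while without pairs 1 and 3 there 3 were higher (Myh1, Myh4 and Tnnc2) and 1 lower (Ckm), and in TA 2 were higher (Myh4, 0.80, and Tnnc2, 0.57) and 1 was lower (Mb, −0.54). The slow fibre markers called lower in TA were Tnnt1 (−0.90), Tnni1 (−0.80) and Tnnc1 (−0.41). Of 3 macrophage and leukocyte markers tested in gastrocnemius 1 was lower (Cd74, −1.10), while without pairs 1 and 3 Cd74 was lower (−0.76) and Adgre1 higher (0.58), and of 4 in TA none was called. Of 6 fibroblast markers, led by Col1a2, 1 was lower in gastrocnemius (Thy1, −0.35, and −0.23, not called, without pairs 1 and 3) and none was called in TA, where pair 3 had a summed level of 156100 in Eif6+/- and 29950 in WT muscle. Of 4 endothelial markers, led by Kdr, none was called in gastrocnemius, where without pairs 1 and 3 Cdh5 (−0.63) and Pecam1 (−0.38) were lower, and 1 was lower in TA (Pecam1, −0.32).

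Of the adipocyte markers, Adipoq was lower in gastrocnemius (−0.64, and −0.67, not called, without pairs 1 and 3) and Cidec and Retn were higher in TA (0.60 and 0.65). A second Retn probe was at 0.53 in TA and was not called (adjusted p = 0.114). None of 3 red blood cell markers was called in gastrocnemius, and 1 was lower without pairs 1 and 3 (Hbb-bs, −0.74). Of 4 Schwann cell markers, led by Pmp22, none was called in gastrocnemius and 2 were lower in TA, namely Mbp (−0.21) and S100b (−0.35). A second Mbp probe was higher in TA (0.33, adjusted p = 0.0669). Of 4 neutrophil markers, none was bright enough on all arrays of gastrocnemius, and S100a9 was lower in TA (−1.61).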
